A study of Mus musculus with 12 samples.

Results

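The report concerns 10 mouse genes that cells switch on early after stress or growth signals: the growth arrest and DNA damage genes Gadd45a, Gadd45b and Gadd45g, the antiproliferative genes Btg1 and Btg2, the immediate early response genes Ier2, Ier3 and Ier5, the nuclear protein gene Csrnp1, and the proto-oncogene Myc. They were found by matching gene identifiers to symbols, and all 10 were among the 55487 genes of the count and TPM tables (transcript levels scaled by gene length and library size). All 10 also passed the low-count filter that left 16836 genes for testing.

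Cortex was taken 2 hr after controlled cortical impact (CCI), a mouse model of brain trauma in which a piston deforms the exposed cortex, and its RNA was sequenced. The 4 groups, of 3 libraries each, were ipsilateral cortex (the impact side) and contralateral cortex (the opposite side) of cKO mice, labelled CX3CR1cre-er/+ STING fl/fl, and ipsilateral and contralateral cortex of wt mice, labelled CX3CR1cre-er/+. Every mouse thus carried the Cre allele, and every library came from an injured animal, with no sham surgery. The design text writes the allele of the floxed mice as CX3CR1cre/+, ages and tamoxifen dosing are not given in the sources used here, and the Cre driver, Cx3cr1, is active in microglia and monocytes and not in neurons. The labels do not state that libraries are from separate animals, so the p-values refer to the spread between libraries.

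GADD45 proteins are small acidic proteins without enzymatic activity that bind and activate the stress kinase MAP3K4 and also bind PCNA, the cyclin-dependent kinase CDK1 and its inhibitor encoded by Cdkn1a. In neurons Gadd45b is known as an activity-induced gene that promotes demethylation of DNA. BTG proteins bind the CNOT7 and CNOT8 deadenylases and speed the loss of poly(A) tails from messenger RNAs. IER genes are rapidly transcribed after serum, stress or synaptic activity, and MYC is a transcription factor that binds E-box DNA together with MAX.

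Total counts were 20.8 M to 33.6 M in 11 libraries and 7.96 M in cKO ipsilateral library 3. That library also held 10548 TPM of the short noncoding RNA Bc1, against 83028 to 167036 TPM elsewhere, so member values whose call or direction it changes, or that it moves by more than 1.5 times, are also given without it. The targeted gene Tmem173, which encodes STING, had 0.762 to 2.44 CPM (counts scaled to library size by trimmed mean of M values) in the 6 cKO libraries and 2.34 to 3.69 CPM in the 6 wt libraries. Its cKO against wt log2 fold change was −0.84 ± 0.35 (SE) in ipsilateral cortex (edgeR unadjusted p = 0.0320, adjusted p = 0.816). It was −1.16 ± 0.35 in contralateral cortex (edgeR unadjusted p = 0.00479, adjusted p = 1). The contralateral ranges, 0.762 to 1.96 CPM in cKO and 2.49 to 3.18 CPM in wt libraries, did not overlap, as for 7% of all genes. The ipsilateral ranges overlapped. All 7 markers of cortical neurons were detected in every group, with summed levels of 6527 to 7891 CPM per library.

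Promoter sequences around the start sites were available for 8 of the 10 members, from RefSeq on GRCm38.p6 (mm10), as 250 bases before to 50 bases after each start; there were 11 because Csrnp1 has 4 starts. Of these, 4 are shown because they hold letters of motifs bound by factors of the early response, and Gadd45a is shown as the member whose level did not pass the test. Each is written 5′ to 3′ on the strand of the gene, and capitals mark the motif matches.
Btg2, chr1:134079106-134079405, minus strand: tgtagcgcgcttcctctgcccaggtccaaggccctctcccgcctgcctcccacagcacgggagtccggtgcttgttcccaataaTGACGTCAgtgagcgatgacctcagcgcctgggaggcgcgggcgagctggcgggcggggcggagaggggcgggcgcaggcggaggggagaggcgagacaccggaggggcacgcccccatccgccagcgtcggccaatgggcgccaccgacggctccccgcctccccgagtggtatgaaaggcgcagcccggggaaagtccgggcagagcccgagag
Csrnp1, chr9:119982974-119983273, minus strand: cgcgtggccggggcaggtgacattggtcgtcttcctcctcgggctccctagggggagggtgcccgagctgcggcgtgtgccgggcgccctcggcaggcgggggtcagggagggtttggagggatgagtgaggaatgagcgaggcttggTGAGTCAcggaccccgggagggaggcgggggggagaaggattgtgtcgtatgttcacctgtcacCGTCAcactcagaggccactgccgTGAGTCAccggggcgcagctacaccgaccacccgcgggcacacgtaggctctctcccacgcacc
Gadd45b, chr10:80929841-80930140, plus strand: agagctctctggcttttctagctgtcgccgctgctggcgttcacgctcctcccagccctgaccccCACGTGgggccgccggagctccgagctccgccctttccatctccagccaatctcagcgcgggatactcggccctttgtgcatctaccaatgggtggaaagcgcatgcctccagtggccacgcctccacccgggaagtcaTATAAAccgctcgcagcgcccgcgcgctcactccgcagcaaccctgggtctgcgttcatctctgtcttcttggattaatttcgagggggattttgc
Gadd45g, chr13:51846425-51846724, plus strand: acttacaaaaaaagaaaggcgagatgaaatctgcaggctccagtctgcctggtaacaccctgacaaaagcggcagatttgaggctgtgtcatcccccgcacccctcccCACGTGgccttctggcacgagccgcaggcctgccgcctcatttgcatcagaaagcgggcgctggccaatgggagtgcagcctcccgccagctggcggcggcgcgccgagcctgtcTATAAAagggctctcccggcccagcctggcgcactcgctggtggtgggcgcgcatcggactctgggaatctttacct
Gadd45a, chr6:67037358-67037657, minus strand: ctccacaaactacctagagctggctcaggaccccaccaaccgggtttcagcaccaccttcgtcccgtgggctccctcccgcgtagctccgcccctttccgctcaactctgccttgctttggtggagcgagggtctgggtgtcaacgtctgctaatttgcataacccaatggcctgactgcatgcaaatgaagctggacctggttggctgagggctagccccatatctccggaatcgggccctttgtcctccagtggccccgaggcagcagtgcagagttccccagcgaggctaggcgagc

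In Btg2 the capitals are TGACGTCA, the full cyclic AMP response element, at −166 to −159 from the start; 1 of the 11 member promoters held it, as did 1.79% of all 32851 promoters in the table. The Csrnp1 promoter shown held the AP-1 motif TGANTCA, which FOS and JUN proteins bind, at −102 to −96 and at −14 to −8, and its other capitals are the short core TGACG of the cyclic AMP response element on the opposite strand at −38 to −34. AP-1 letters were in 1 of 11 member promoters and 7.81% of all, and the short core, which also lies inside the full element, was in 6 of 11 and 20.8%; 4 of those 6 are the starts of Csrnp1, the others being Btg1 and Btg2. Gadd45b and Gadd45g each held an E-box, CACGTG, which MYC with MAX can bind, at −185 to −180 and at −142 to −137. E-boxes were in 2 of 11 member promoters and 7.15% of all. The TATA letters TATAAA lay at −46 to −41 in Gadd45b, −27 to −22 in Gadd45g and −26 to −21 in Btg1, and were in 3 of 11 and 13.6%. Also searched were 1 narrow form of the kappa B motif of NF-kB and the CArG box of serum response factor. Both, searched on both strands like the others, matched 0 of 11, and 5.56% and 1.63% of all promoters. Looser forms of the kappa B motif were not searched. The 0 thus does not show that member promoters, that of Ier3 among them, lack kappa B-like letters. In Gadd45a none of these motifs, as searched, was found in this window.

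The first question was how the 10 genes differed between the injured and the opposite cortex. Of the 10, 9 were higher in ipsilateral cortex past the test in cKO mice and 9 in wt mice (edgeR quasi-likelihood test, Benjamini-Hochberg adjusted p below 0.05), Gadd45a being the exception in both. Over all 16836 genes, 2.56% were called higher and 0.178% lower in cKO mice, and 2.73% higher and 0.184% lower in wt mice. The same 9 had every ipsilateral library above every contralateral one in both genotypes, which held for 10.8% of all genes in cKO and 10.5% in wt mice. The median log2 fold change of the 10 was 1.59 in cKO and 1.31 in wt mice, and that of all tested genes was −0.01 in both.

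**Figure D1:**
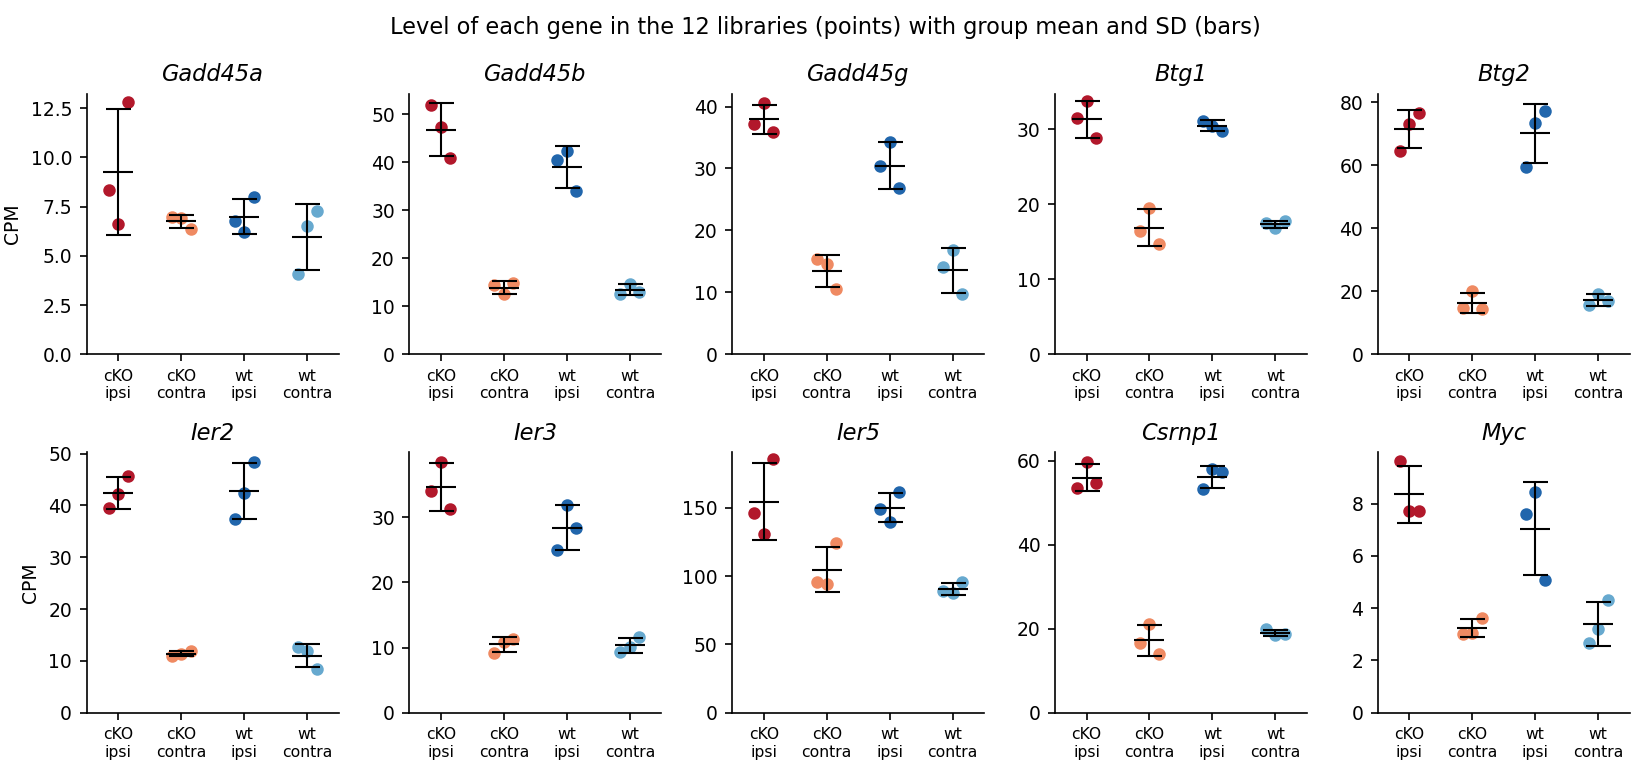
CPM (y axis, 1 panel per gene, each with its own scale from 0) of the 10 genes in each library; points are libraries and bars are the group mean ± SD of 3 libraries. In every panel but that of Gadd45a, the ipsilateral points of a genotype lie above all its contralateral points; in Gadd45a the groups overlap and cKO ipsilateral library 3 is the highest point at 12.8 CPM.

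Among the GADD45 genes, Gadd45b (chromosome 10, 80930073 to 80932204, plus strand, mm10) had 52.0, 47.3 and 40.9 CPM in cKO ipsilateral libraries 1 to 3, against 14.4, 12.4 and 14.9 CPM in cKO contralateral ones. In wt mice it had 40.5, 42.4 and 34.1 CPM in ipsilateral libraries, against 12.6, 14.7 and 13.0 CPM in contralateral ones. The 2 sides were far apart in both genotypes, and the lowest ipsilateral value was above the highest contralateral value. On the log2 scale the sides differed by 1.76 ± 0.12 in cKO (edgeR adjusted p = 1.74e-07) and 1.54 ± 0.11 in wt mice (edgeR adjusted p = 8.60e-07), or 3.39-fold and 2.90-fold.

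Gadd45g (chromosome 13, 51846678 to 51848468, plus strand), the member of the family best known from cytokine and developmental signalling, had 37.2, 40.6 and 35.95 CPM in cKO ipsilateral libraries, against 15.4, 14.6 and 10.6 CPM in cKO contralateral ones. It had 30.4, 34.2 and 26.8 CPM in wt ipsilateral libraries, against 14.2, 16.8 and 9.65 CPM in wt contralateral ones. The sides did not overlap, and contralateral library 3 was the lowest in both genotypes. The fold change was, in log2, 1.48 ± 0.17 in cKO (edgeR adjusted p = 8.41e-05) and 1.17 ± 0.17 in wt mice (edgeR adjusted p = 0.000862).

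Gadd45a (chromosome 6, 67035096 to 67037457, minus strand), the p53-regulated member, had 8.36, 6.61 and 12.8 CPM in cKO ipsilateral libraries, against 6.96, 6.95 and 6.38 CPM in cKO contralateral ones. It had 6.76, 6.22 and 7.98 CPM in wt ipsilateral libraries, against 4.07, 6.53 and 7.26 CPM in wt contralateral ones. The sides overlapped in both genotypes, and the high cKO value came from the shallow library 3. The side difference in log2 was 0.39 ± 0.23 in cKO (95% interval −0.10 to 0.87, edgeR adjusted p = 0.464) and 0.23 ± 0.22 in wt mice (−0.24 to 0.71, edgeR adjusted p = 0.692). Without cKO ipsilateral library 3 the cKO value was 0.15 ± 0.21 (edgeR adjusted p = 0.824). Gadd45a overlaps E230016M11Rik on the opposite strand, and whether counting used strand is not given in the sources used here, so reads of both could be mixed.

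Of the BTG genes, Btg2 (chromosome 1, 134075170 to 134079120, minus strand), whose promoter holds the full cyclic AMP response element, had the largest fold change of the 10 in both genotypes. Its levels were 64.7, 73.2 and 76.5 CPM in cKO ipsilateral libraries, against 14.8, 20.0 and 14.3 CPM in cKO contralateral ones. They were 59.5, 73.5 and 77.3 CPM in wt ipsilateral libraries, against 15.6, 19.2 and 17.0 CPM in wt contralateral ones. No ipsilateral library came near the contralateral range in either genotype. Ipsilateral over contralateral, the log2 fold change was 2.12 ± 0.14 in cKO (edgeR adjusted p = 1.60e-07, place 134 of 16836 genes ordered by fold change) and 2.02 ± 0.13 in wt mice (edgeR adjusted p = 2.82e-07, place 135).

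Btg1 (chromosome 10, 96617006 to 96622809, plus strand), the paralogue of Btg2 that is abundant in resting cells, showed a smaller difference between tightly grouped libraries. It had 31.5, 33.8 and 28.9 CPM in cKO ipsilateral libraries, against 16.5, 19.5 and 14.7 CPM in cKO contralateral ones, and 31.2, 30.5 and 29.7 CPM in wt ipsilateral libraries, against 17.5, 16.8 and 17.7 CPM in wt contralateral ones. No ipsilateral library fell to the contralateral range. The log2 fold change was 0.90 ± 0.10 in cKO (edgeR adjusted p = 5.37e-05) and 0.81 ± 0.10 in wt mice (edgeR adjusted p = 0.000132). With limma on log2(TPM + 0.1) in place of counts it was not called, with 0.94 in cKO (limma adjusted p = 0.0993) and 0.60 in wt mice (limma adjusted p = 0.218).

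Ier2 (chromosome 8, 84661331 to 84662852, minus strand), which encodes a nuclear protein of the serum response, had 39.5, 42.1 and 45.7 CPM in cKO ipsilateral libraries, against 10.9, 11.4 and 11.9 CPM in cKO contralateral ones. It had 37.4, 42.4 and 48.3 CPM in wt ipsilateral libraries, against 12.7, 11.8 and 8.53 CPM in wt contralateral ones. Every ipsilateral value was well above the contralateral range, and the fold change ranked below Btg2 alone among the 10 in both genotypes. It was 1.89 ± 0.13 on the log2 scale in cKO (edgeR adjusted p = 3.91e-07) and 1.95 ± 0.13 in wt mice (edgeR adjusted p = 3.22e-07).

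Ier3 (chromosome 17, 35821684 to 35822923, plus strand), also called IEX-1 and known to modulate apoptosis and ERK signalling, had 33.9, 38.5 and 31.2 CPM in cKO ipsilateral libraries, against 9.22, 10.9 and 11.3 CPM in cKO contralateral ones. It had 25.0, 31.8 and 28.3 CPM in wt ipsilateral libraries, against 9.39, 10.1 and 11.6 CPM in wt contralateral ones. The contralateral ranges of the genotypes lay over each other, and the ipsilateral ranges overlapped in part. The log2 fold change was 1.74 ± 0.12 in cKO (edgeR adjusted p = 3.95e-07) and 1.45 ± 0.12 in wt mice (edgeR adjusted p = 2.72e-06).

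Ier5 (chromosome 1, 155096361 to 155099636, minus strand), whose protein binds and activates the heat shock factor HSF1, had the highest CPM of the 10 and the smallest of the called changes. It had 146, 131 and 186 CPM in cKO ipsilateral libraries, against 95.8, 94.6 and 124 CPM in cKO contralateral ones. It had 149.5, 140.0 and 161 CPM in wt ipsilateral libraries, against 88.9, 87.4 and 95.7 CPM in wt contralateral ones. Library 3 was the highest in each of the 4 groups, and in cKO mice the gap between sides was narrow. The log2 fold change was 0.55 ± 0.12 in cKO (edgeR adjusted p = 0.0210) and 0.73 ± 0.12 in wt mice (edgeR adjusted p = 0.00276). The cKO call was lost without cKO ipsilateral library 3 (log2 0.41, edgeR adjusted p = 0.0879), without cKO contralateral library 1 or 2 (edgeR adjusted p = 0.129 and 0.120), and in a fit of the 2 cKO groups alone (0.0509). With log2(TPM + 1) and limma it was called in neither genotype (limma adjusted p = 0.442 in cKO and 0.200 in wt mice).

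Csrnp1 (chromosome 9, 119971163 to 119984658, minus strand), a nuclear protein gene first described as induced by AXIN1, had 53.6, 59.7 and 54.6 CPM in cKO ipsilateral libraries, against 16.6, 21.2 and 13.9 CPM in cKO contralateral ones. It had 53.2, 57.9 and 57.2 CPM in wt ipsilateral libraries, against 19.9, 18.5 and 18.7 CPM in wt contralateral ones. The ipsilateral ranges of the genotypes were nearly the same. The log2 fold change was 1.70 ± 0.12 in cKO (edgeR adjusted p = 3.20e-07) and 1.56 ± 0.12 in wt mice (edgeR adjusted p = 8.76e-07). Its annotation overlaps that of Cx3cr1 on the same strand and 1700019L13Rik on the opposite strand, so reads could be shared; Cx3cr1, the locus of the Cre, had log2 fold changes between sides of −0.24 ± 0.12 in cKO and −0.10 ± 0.12 in wt mice and was called in neither (edgeR adjusted p = 0.412 and 0.757).

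Myc (chromosome 15, 61985391 to 61990374, plus strand) had the lowest level of the 10, with 9.62, 7.73 and 7.71 CPM (267, 193 and 62 counts) in cKO ipsilateral libraries, against 3.02, 3.07 and 3.62 CPM in cKO contralateral ones. It had 7.62, 8.45 and 5.06 CPM in wt ipsilateral libraries, against 2.66, 3.21 and 4.30 CPM in wt contralateral ones. In wt mice ipsilateral library 3 came close to contralateral library 3. The log2 fold change was 1.39 ± 0.21 in cKO (edgeR adjusted p = 0.00105) and 1.06 ± 0.21 in wt mice (edgeR adjusted p = 0.00933). The wt call was lost without wt ipsilateral library 2 (edgeR adjusted p = 0.0672) or wt contralateral library 2 (0.0568). With log2(TPM + 1) and limma it was called in neither genotype (limma adjusted p = 0.0533 in cKO and 0.208 in wt mice), and with a pseudocount of 0.1 in cKO mice alone (limma adjusted p = 0.0492 in cKO and 0.201 in wt mice).

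**Figure D2:**
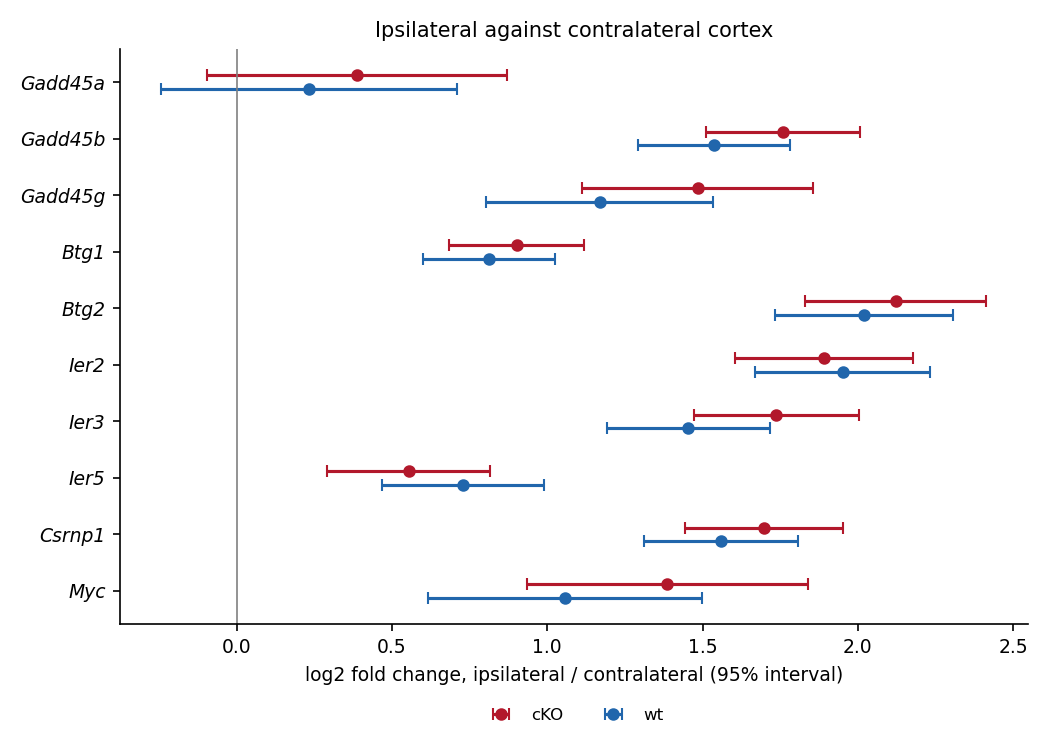
log2 fold change of ipsilateral over contralateral cortex (x axis) for the 10 genes (rows), in cKO (red) and wt mice (blue); points are edgeR estimates and lines their 95% intervals. The intervals of 9 genes lie above 0 in both genotypes, from Btg2 at 2.12 in cKO mice down to Ier5 at 0.55, and those of Gadd45a cross 0.

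Other values moved with the side. Summed markers of neutrophils were 28.1 to 62.9 CPM in cKO ipsilateral and 6.14 to 7.24 CPM in cKO contralateral libraries, and 15.9 to 41.3 CPM in wt ipsilateral and 6.84 to 7.37 CPM in wt contralateral libraries. Of their 11 tested genes, 11 rose in cKO and 10 in wt mice, and Mmp8 and Ly6g were at 0 in both contralateral groups. Summed red cell markers were 798 to 1103 CPM in cKO ipsilateral and 182 to 256 CPM in cKO contralateral libraries, and 775 to 2278 CPM in wt ipsilateral and 180.1 to 433 CPM in wt contralateral libraries. Summed markers of cortical neurons were 6527 to 6660.1 CPM in cKO ipsilateral and 7363 to 7783 CPM in cKO contralateral libraries, and 6793 to 7806 CPM in wt ipsilateral and 7537 to 7891 CPM in wt contralateral libraries, with 1 of 7 called lower in cKO and 0 in wt mice. The sums thus did not overlap in cKO mice and overlapped in wt mice. Lymphocyte markers summed to at most 3.37 CPM in any library. Astrocyte markers summed to 2054 to 2272 CPM in cKO ipsilateral and 1743 to 1949.8 CPM in cKO contralateral libraries, and to 1992 to 2253 and 1810.1 to 1873 CPM in wt ipsilateral and wt contralateral libraries, without overlap in either genotype. Endothelial markers summed to 194 to 218 CPM in cKO ipsilateral and 162 to 169.6 CPM in cKO contralateral libraries, without overlap, and to 187 to 249.6 and 167 to 194 CPM in wt ipsilateral and wt contralateral libraries, which overlapped; 1 of 6 was called higher in each genotype. The summed ranges of microglia markers overlapped between sides in both genotypes, and 1 of 8 was called lower in each. Striatal markers summed to 108 to 140 CPM in cKO ipsilateral and 109 to 134 CPM in cKO contralateral libraries. In wt mice they were 116 to 170 and 114 to 134 CPM, so the sides overlapped in both genotypes. The 6 striatal genes had a median log2 fold change of 0.06 in cKO and 0.54 in wt mice, with 0 called. At an unadjusted edgeR p below 0.05, 1 was higher in cKO and 2 in wt mice. Oligodendrocyte sums overlapped between sides, with 0 of 5 called. The mitochondrial share of counts was 5.31 to 8.16% in ipsilateral and 4.27 to 5.45% in contralateral libraries. The part of these in the results was not tested, and in bulk tissue more cells of a type and more RNA per cell cannot be told apart.

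Levels of different genes can be set side by side only per length, so TPM was used to order the 10 within each group (mean ± SD, n = 3). In cKO ipsilateral cortex Ier5 was highest at 78.1 ± 25.3 TPM, then Gadd45b at 71.2 ± 7.72, Gadd45g at 68.0 ± 4.34, Ier3 at 57.2 ± 1.30, Csrnp1 at 51.9 ± 7.37, Ier2 at 49.7 ± 9.41 and Btg2 at 43.1 ± 8.33 TPM, followed by Gadd45a at 15.5 ± 7.69, Btg1 at 14.2 ± 1.07 and Myc at 7.19 ± 1.61 TPM. The first place of Ier5 there rested on library 3, at 106 TPM: without that library the means were 71.6 TPM for Gadd45b, 65.6 for Gadd45g and 64.1 for Ier5, and Btg1 at 14.8 stood above Gadd45a at 11.2 TPM. In cKO contralateral cortex Ier5 was at 53.6 ± 7.37 TPM, and the others ran from Gadd45g at 25.9 ± 5.34 and Gadd45b at 22.0 ± 1.31 TPM down to Btg1 at 7.77 ± 2.98 and Myc at 3.07 ± 0.402 TPM. In cKO ipsilateral cortex the only neighbours in this order whose libraries did not overlap were Gadd45g and Ier3, Btg2 and Gadd45a, and Btg1 and Myc. In cKO contralateral cortex they were Ier5 and Gadd45g, Gadd45b and Ier3, Ier2 and Gadd45a, and Btg1 and Myc.

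In wt ipsilateral cortex Ier5 was at 65.9 ± 7.83 TPM, Gadd45b at 53.7 ± 9.48, Gadd45g at 49.5 ± 7.58, Csrnp1 at 46.2 ± 2.90, Ier2 at 44.0 ± 2.83, Ier3 at 42.2 ± 2.71 and Btg2 at 37.0 ± 1.62 TPM, with Btg1 at 14.7 ± 0.713, Gadd45a at 10.5 ± 1.82 and Myc at 5.90 ± 2.16 TPM. The libraries of neighbours overlapped from Ier5 down to Ier3 and were separate from there on. In wt contralateral cortex Ier5 at 45.9 ± 3.39 TPM stood above Gadd45g at 25.4 ± 6.90 TPM, Csrnp1 at 18.0 ± 1.43 above Ier2 at 13.2 ± 2.35 TPM, and Btg1 at 9.84 ± 2.35 above Myc at 3.41 ± 0.801 TPM, each pair without overlap, and all other neighbours overlapped. Myc was thus last in all 4 groups, and Ier5 was first in all 4, except that it was placed 3 in cKO ipsilateral cortex without library 3.

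The make-up of the families by TPM also differed between the sides; it is given as a description without a test. The 3 GADD45 genes summed to 155 ± 15.5 TPM in cKO ipsilateral and 59.7 ± 5.01 TPM in cKO contralateral cortex, and to 114 ± 16.6 and 56.5 ± 9.55 TPM in wt ipsilateral and wt contralateral cortex. TPM were not rescaled between libraries. With log2(TPM + 1) the median log2 fold change of all genes was 0.16 for cKO over wt in ipsilateral cortex and −0.18 between wt sides. These sums are thus no measure of a group difference, whereas shares within a library do not depend on that scale. The Gadd45a share was 9.80% ± 4.07 in cKO ipsilateral and 20.0% ± 1.07 in cKO contralateral cortex, and 9.40% ± 2.40 in wt ipsilateral and 17.9% ± 5.74 in wt contralateral cortex, without overlap of the sides. The Gadd45b share was 46.1% ± 3.82 in cKO ipsilateral and 37.0% ± 4.76 in cKO contralateral cortex, where the libraries overlapped, and 47.1% ± 1.49 in wt ipsilateral and 37.3% ± 2.33 in wt contralateral cortex, where they did not. The Gadd45g share lay between 43.0% and 44.7% in the 4 group means.

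Btg2 held 74.8% ± 4.66 of the summed TPM of Btg1 and Btg2 in cKO ipsilateral and 57.6% ± 6.50 in cKO contralateral cortex, and 71.6% ± 1.13 in wt ipsilateral and 52.2% ± 9.53 in wt contralateral cortex, with no overlap in either genotype. Among the IER genes, Ier5 held 41.5% ± 5.38 in cKO ipsilateral and 62.3% ± 2.68 in cKO contralateral cortex, and 43.2% ± 3.15 in wt ipsilateral and 59.5% ± 1.74 in wt contralateral cortex. The Ier2 share was 26.9% ± 0.607 in cKO ipsilateral and 16.2% ± 1.27 in cKO contralateral cortex, and 29.0% ± 1.67 in wt ipsilateral and 17.2% ± 3.72 in wt contralateral cortex. The Ier3 share was 31.6% ± 5.10 in cKO ipsilateral and 21.4% ± 1.71 in cKO contralateral cortex, and 27.8% ± 2.96 in wt ipsilateral and 23.3% ± 2.14 in wt contralateral cortex. Ipsilateral and contralateral libraries did not overlap in any of these IER shares. Per length, transcripts of Btg2, Ier2 and Ier3 thus made up more of their family on the injured side, and those of Gadd45a, Btg1 and Ier5 less.

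**Figure D3:**
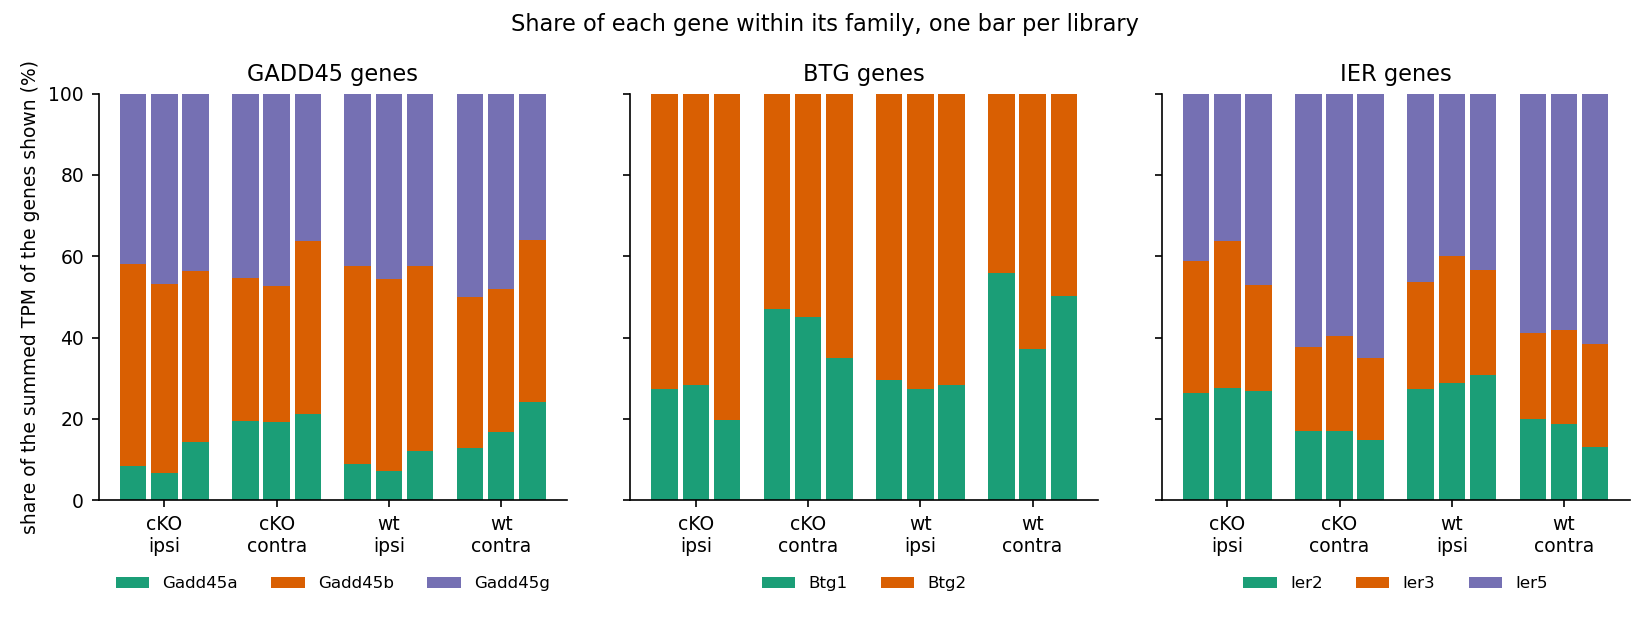
Share of each gene in the summed TPM of its family (y axis, percent), 1 bar per library, libraries 1 to 3 from left to right in each group, for the GADD45, BTG and IER genes. The Gadd45a, Btg1 and Ier5 segments are smaller in ipsilateral than in contralateral bars, for example 9.80% against 20.0% on average for Gadd45a in cKO mice.

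For each member, the genes with the most similar pattern were sought among 11528 genes averaging 5 CPM or more, leaving out the members, as the smallest root mean square difference of the 4 group means of log2 CPM after centring. Btg1 was nearest to Tmcc3 (0.0181) and Sbno2 (0.0199), Btg2 to Depp1 (0.0247) and Kdm6b (0.0760), and Ier2 to Kdm6b (0.0382) and Itga5 (0.0710). Csrnp1 was nearest to the AP-1 subunit gene Junb (0.0206) and to Ppp1r15a (0.0473), which encodes a phosphatase subunit also known as GADD34. Gadd45b and Ier3 both had Cd83 nearest (0.0441 and 0.0443), followed by Tuba1c (0.0845) and Ctla2a (0.0767). Ier5 was nearest to Cdc42ep3 (0.0253) and Phf13 (0.0258), Gadd45a to Rnd1 (0.0290) and Tinagl1 (0.0328), Gadd45g to Zfp36l1 (0.0679) and Arid5a (0.0709), and Myc to Tnfrsf12a (0.0550) and Tnfaip6 (0.0628). Among the members themselves the closest pairs were Gadd45b and Ier3 (0.0311), Gadd45g and Myc (0.0849), and Btg2 and Ier2 (0.0942). Over only 4 group means this is a description, with the side as the main axis for the members called between sides. For Gadd45a, which was not called, the log2 fold changes were 0.39 between cKO sides and 0.23 between wt sides. Its cKO over wt values were 0.34 in ipsilateral and 0.19 in contralateral cortex. Without cKO ipsilateral library 3 the Gadd45a values were 0.15 between cKO sides and 0.10 between ipsilateral genotypes.

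Genes that work with the members were taken from 7 lists holding 85 genes, of which 81 were tested. In ipsilateral against contralateral cortex, edgeR called 13 higher in cKO mice and 14 in wt mice, and 0 lower in either. Over all 16836 genes it called 2.56% higher and 0.178% lower in cKO, and 2.73% higher and 0.184% lower in wt mice. With shares this small, 0 lower among 81 genes tells little, as does a single call in a short list. Of the 81, 26 and 25 had an unadjusted p below 0.05 in either direction, against 2406 and 2425 of all genes. Of the same 81, DESeq2 called 15 and 16 higher and limma-voom 13 and 15, and both called 0 lower. With log2(TPM + 1) and limma 7 and 3 were called, of 78 tested. That fit lost the calls of Tob2 in cKO and wt mice (limma adjusted p = 0.0599 and 0.190) and, in wt mice, of Cdkn1a (0.186), Map2k3 (0.155), Plk3 (0.136) and Bag3 (0.192). It also lost every call given for Ier5l, Csrnp2, Plk2, Mnt, Odc1 and Dnajb1 (0.178 to 0.798). The median log2 fold change in cKO and wt mice was 0.46 and 0.53 for relatives of the members, −0.01 and 0.01 for GADD45 partners, −0.06 and −0.06 for the CCR4-NOT deadenylase, 0.10 and 0.13 for p53 and its targets, 0.21 and 0.13 for the MAX network, 0.02 and −0.05 for MYC targets, and 0.69 and 0.51 for HSF1 and its targets, against −0.01 for all tested genes in both.

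Of 9 tested relatives of the members, 3 rose in cKO and 4 in wt mice. Tob1, a protein of the BTG family that also recruits deadenylases, rose by 0.84 ± 0.10 on the log2 scale in cKO (edgeR adjusted p = 0.00011) and 1.08 ± 0.10 in wt mice (edgeR adjusted p = 6.24e-06). Its paralogue Tob2 rose by 0.72 ± 0.13 and 0.71 ± 0.13 (edgeR adjusted p = 0.0053 and 0.00562). Ier5l, a relative of Ier5, rose by 0.47 ± 0.10 in cKO and 0.54 ± 0.10 in wt mice (edgeR adjusted p = 0.0157 and 0.00646); the cKO call was lost without cKO ipsilateral library 1 or 2 or any of the 3 cKO contralateral libraries (edgeR adjusted p up to 0.0917). Csrnp2, a paralogue of Csrnp1, rose by 0.53 ± 0.13 in wt mice (edgeR adjusted p = 0.0316) and had 0.46 ± 0.13 in cKO mice (0.0774); the difference between these values was −0.07 ± 0.18 (edgeR adjusted p = 0.99987). Its wt call was lost without library 1 or 2 of wt ipsilateral or wt contralateral cortex (up to 0.151), with library totals (0.0608) and in a fit of the 2 wt groups alone (0.0939).

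Of 10 tested partners of GADD45 proteins, 2 rose in each genotype. Cdkn1a, the cyclin-dependent kinase inhibitor that binds GADD45 proteins, had 86.9 ± 2.77 CPM in cKO ipsilateral and 50.2 ± 1.74 CPM in cKO contralateral cortex, and 65.5 ± 3.43 CPM in wt ipsilateral and 42.3 ± 4.82 CPM in wt contralateral cortex (SD, n = 3). Its log2 fold change was 0.79 ± 0.08 in cKO and 0.63 ± 0.08 in wt mice (edgeR adjusted p = 2.41e-05 and 0.000252). Map2k3, a kinase that activates p38 below MAP3K4, rose by 0.77 ± 0.11 in cKO and 0.77 ± 0.11 in wt mice (edgeR adjusted p = 0.000672 and 0.000678).

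Of the 12 genes of the CCR4-NOT deadenylase and its partners, through which BTG proteins act, 0 were called in either genotype by edgeR. In each genotype 1 had an unadjusted p below 0.05 upward and 1 downward; DESeq2 called 0 in cKO mice and 1, Pabpc1, in wt mice (DESeq2 adjusted p = 0.0356), and limma-voom 0 and 0. The 2 with the highest CPM were Pabpc1, the poly(A)-binding protein, with log2 fold changes of 0.15 ± 0.06 in cKO and 0.20 ± 0.06 in wt mice (edgeR adjusted p = 0.268 and 0.110, the wt gene being called without wt contralateral library 3 at 0.0489), and the scaffold Cnot1 with −0.10 ± 0.09 and −0.11 ± 0.09 (edgeR adjusted p = 0.685 and 0.652).

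Of 19 tested genes of p53 and its targets, of which Gadd45a and Btg2 are known ones kept out of the list, 4 rose in each genotype, Cdkn1a among them. The polo-like kinase gene Plk3 rose by 0.97 ± 0.12 in cKO and 0.86 ± 0.12 in wt mice (edgeR adjusted p = 0.000143 and 0.000352). Plk2, which is induced by neuronal activity, rose by 0.33 ± 0.07 and 0.29 ± 0.07 (edgeR adjusted p = 0.0147 and 0.0392). Its cKO call was lost without cKO ipsilateral library 2 or 3 or cKO contralateral library 1 or 3 (up to 0.0855), and its wt call without any wt ipsilateral library, wt contralateral library 1 or 2, or library 1 of either cKO side (up to 0.140), and also with library totals (0.131) and in a fit of the 2 wt groups alone (0.0782). The death receptor gene Tnfrsf10b, at 0.871 to 2.16 CPM in cKO ipsilateral and 0.587 to 0.895 CPM in cKO contralateral libraries, which overlapped, rose by 1.33 ± 0.33 in cKO and 1.64 ± 0.33 in wt mice (edgeR adjusted p = 0.0443 and 0.0107). The cKO call was lost when any library but cKO ipsilateral 3, wt ipsilateral 3 and wt contralateral 3 was left out (up to 0.234) and in a fit of the 2 cKO groups alone (0.0855), and the wt call without wt ipsilateral or wt contralateral library 2 (up to 0.0712).

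Of 10 tested genes of the MAX network, which compete with MYC for MAX or share its DNA sites, 0 were called in cKO mice by edgeR (4 at an unadjusted p below 0.05, 1 by DESeq2 and 0 by limma-voom) and 1 in wt mice. That 1 was the repressor Mnt, which rose by 0.36 ± 0.08 in wt mice (edgeR adjusted p = 0.0145) and had 0.28 ± 0.08 in cKO mice (0.0727), with a difference of −0.08 ± 0.11 (edgeR adjusted p = 0.99987). Its wt call was lost without library 1 or 2 of wt ipsilateral or wt contralateral cortex (up to 0.0934). In cKO mice the 2 with the highest CPM, Mxd4 and Mxi1, had log2 fold changes of −0.08 ± 0.09 and 0.13 ± 0.08. Of 16 tested MYC targets, 1 rose in each genotype, Odc1, the first enzyme of polyamine synthesis. It rose by 0.26 ± 0.06 in cKO and 0.39 ± 0.06 in wt mice (edgeR adjusted p = 0.0417 and 0.00219), and the cKO call was lost when any library but cKO contralateral 3 and wt contralateral 3 was left out (up to 0.237), with library totals (0.112), without the low-count filter (0.0920) and in a fit of the 2 cKO groups alone (0.0622).

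Of the 6 genes of HSF1, the factor that IER5 activates, and its chaperone targets, 4 rose in cKO and 3 in wt mice. Hspa1b rose by 2.10 ± 0.22 in cKO and 1.66 ± 0.23 in wt mice (edgeR adjusted p = 3.09e-05 and 0.000397), and Hspa1a by 2.14 ± 0.23 and 1.54 ± 0.23 (3.25e-05 and 0.000956). These 2 genes encode near-identical HSP70 proteins, so the split of reads between them is uncertain. The co-chaperone Bag3 rose by 0.93 ± 0.12 in cKO and 0.71 ± 0.12 in wt mice (edgeR adjusted p = 0.000256 and 0.00283). Dnajb1, a co-chaperone of HSP70, rose by 0.44 ± 0.10 in cKO mice (edgeR adjusted p = 0.0193) and had 0.32 ± 0.10 in wt mice (0.107), with a difference of 0.12 ± 0.14 (edgeR adjusted p = 0.99987). Its cKO call was lost without library 1 or 2 of cKO ipsilateral or cKO contralateral cortex (up to 0.129).

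**Figure D4:**
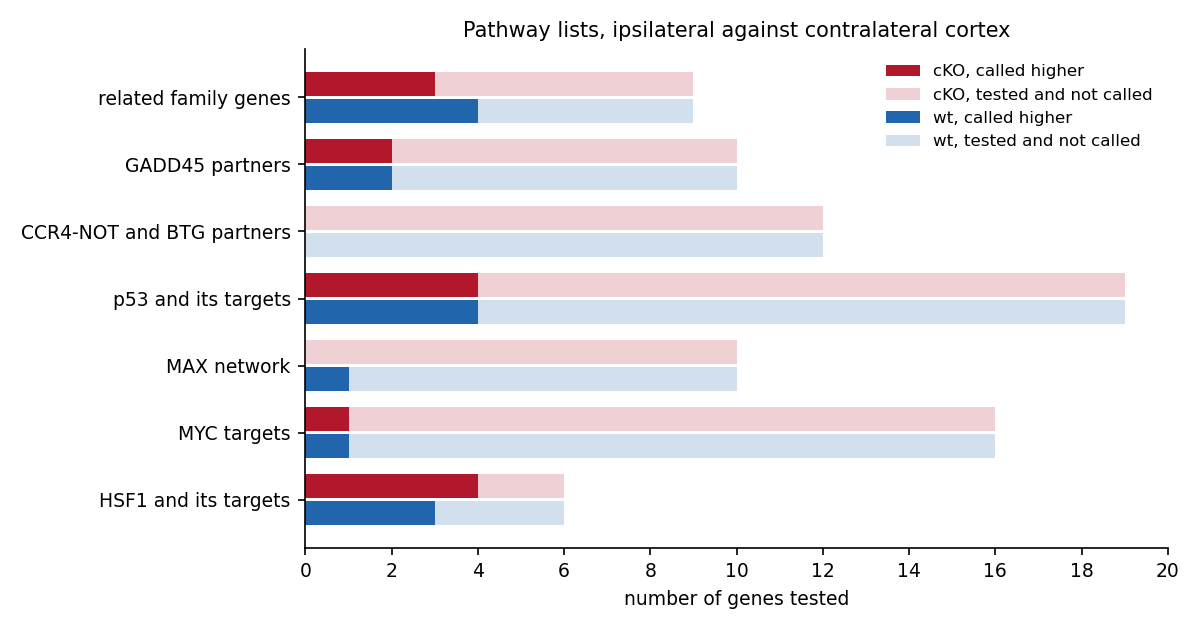
Number of tested genes (x axis) in each of the 7 lists (rows), with those called higher in ipsilateral than in contralateral cortex in dark colour, in cKO (upper bars) and wt mice (lower bars). The HSF1 list has 4 of 6 called in cKO and 3 of 6 in wt mice, and the CCR4-NOT list 0 of 12 in both.

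Each library enters both a comparison of sides and a comparison of genotypes, so these are not independent of each other. The second question was whether these genes had other levels in mice labelled cKO than in mice labelled wt. Tmem173 itself was lower in cKO mice on both sides but, like all other tested genes, was not called by edgeR. The comparison is thus of labelled genotypes and not of a measured deletion. In ipsilateral cortex 0 of the 10 differed between cKO and wt mice past the edgeR test, where 0% of all 16836 genes were called, and DESeq2, limma-voom and limma on TPM also called 0 of the 10. At an unadjusted p below 0.05 there were 2 of the 10 and 987 of all genes, and over all genes DESeq2 called 12, limma-voom 0 and limma on TPM 1. Of the 10 log2 fold changes 8 were above 0, with a median of 0.15 against 0.00135 over all tested genes.

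The 2 with an unadjusted p below 0.05 were Gadd45b and Ier3. Gadd45b averaged 46.7 ± 5.54 CPM in cKO ipsilateral and 39.0 ± 4.35 CPM in wt ipsilateral cortex (SD, n = 3 each), with a log2 fold change of 0.27 ± 0.11 (95% interval 0.04 to 0.51, edgeR adjusted p = 0.775). Ier3 averaged 34.6 ± 3.69 CPM in cKO and 28.4 ± 3.45 CPM in wt ipsilateral cortex, with 0.29 ± 0.12 (0.04 to 0.54, edgeR adjusted p = 0.775). In both genes 1 cKO library lay within the wt range. Gadd45g, at 37.9 ± 2.38 CPM in cKO and 30.5 ± 3.73 CPM in wt ipsilateral cortex, was the only member whose libraries did not overlap, as for 11.6% of all genes; its log2 fold change was 0.32 ± 0.17 (−0.04 to 0.68, edgeR adjusted p = 0.868). Summed neutrophil markers were 28.1 to 62.9 CPM in cKO and 15.9 to 41.3 CPM in wt ipsilateral libraries, which overlapped. Summed cortical neuron markers were 6527 to 6660.1 CPM in cKO and 6793 to 7806 CPM in wt ipsilateral libraries, which did not overlap. Of these 7 genes, 0 were called, and 2 were lower at an unadjusted edgeR p below 0.05. Summed striatal markers were 108 to 140 CPM in cKO and 116 to 170 CPM in wt ipsilateral libraries, which overlapped. The median log2 fold change of these 6 genes was −0.22. Of them, 0 were called, and 2 were lower at an unadjusted edgeR p below 0.05. The part of these markers in the values was not tested.

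For the other 7 in ipsilateral cortex the log2 fold changes of cKO over wt were 0.34 for Gadd45a (95% interval −0.14 to 0.82), 0.26 for Myc (−0.17 to 0.69), 0.05 for Btg1 (−0.16 to 0.26), 0.03 for Ier5 (−0.23 to 0.29), 0.02 for Btg2 (−0.25 to 0.29), −0.02 for Ier2 (−0.28 to 0.25) and −0.0012 for Csrnp1 (−0.24 to 0.24). The intervals of Btg1, Btg2, Ier2, Ier5 and Csrnp1 thus had bounds between −0.28 and 0.29, and those of Gadd45a and Myc were wider. Without cKO ipsilateral library 3 the values were 0.10 for Gadd45a, 0.10 for Btg1, −0.11 for Ier5, −0.07 for Ier2, −0.0250 for Btg2 and 0.0144 for Csrnp1.

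In contralateral cortex 0 of the 10 differed between the genotypes by edgeR, DESeq2, limma-voom or limma on TPM, 0 had an unadjusted p below 0.05, and none was without overlap of the libraries, as against 7% of all genes. Over all genes edgeR called 0%, with 455 at an unadjusted p below 0.05, DESeq2 called 3 and limma-voom 0. The log2 fold changes ran from −0.14 ± 0.12 for Csrnp1 (95% interval −0.39 to 0.11) to 0.21 ± 0.12 for Ier5 (−0.05 to 0.47), with a median of 0.00734. Gadd45b was at 13.9 ± 1.28 CPM in cKO and 13.4 ± 1.11 CPM in wt contralateral cortex, and Ier3 at 10.5 ± 1.11 and 10.3 ± 1.13 CPM, so that the genotypes were close on the opposite side.

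The third comparison was the difference between the side effects, that of cKO mice minus that of wt mice. By edgeR 0 of the 10 and 0% of all genes were called, with 0 of the 10 and 381 of all genes at an unadjusted p below 0.05; DESeq2 and limma-voom called 0 of the 10 and 0 of all genes. The values were 0.33 ± 0.30 for Myc (95% interval −0.30 to 0.96), 0.32 ± 0.24 for Gadd45g (−0.20 to 0.83), 0.28 ± 0.17 for Ier3 (−0.09 to 0.65) and 0.22 ± 0.16 for Gadd45b (−0.12 to 0.56). At the other end they were −0.18 ± 0.17 for Ier5 (−0.54 to 0.19) and −0.06 ± 0.19 for Ier2 (−0.46 to 0.34). All 10 intervals included 0. Without cKO ipsilateral library 3 the difference was −0.32 ± 0.15 for Ier5 (edgeR adjusted p = 0.99998), −0.11 for Ier2, −0.09 for Gadd45a, against 0.15 with it, 0.14 for Btg1, against 0.09, and 0.05 for Btg2, against 0.10.

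**Figure D5:**
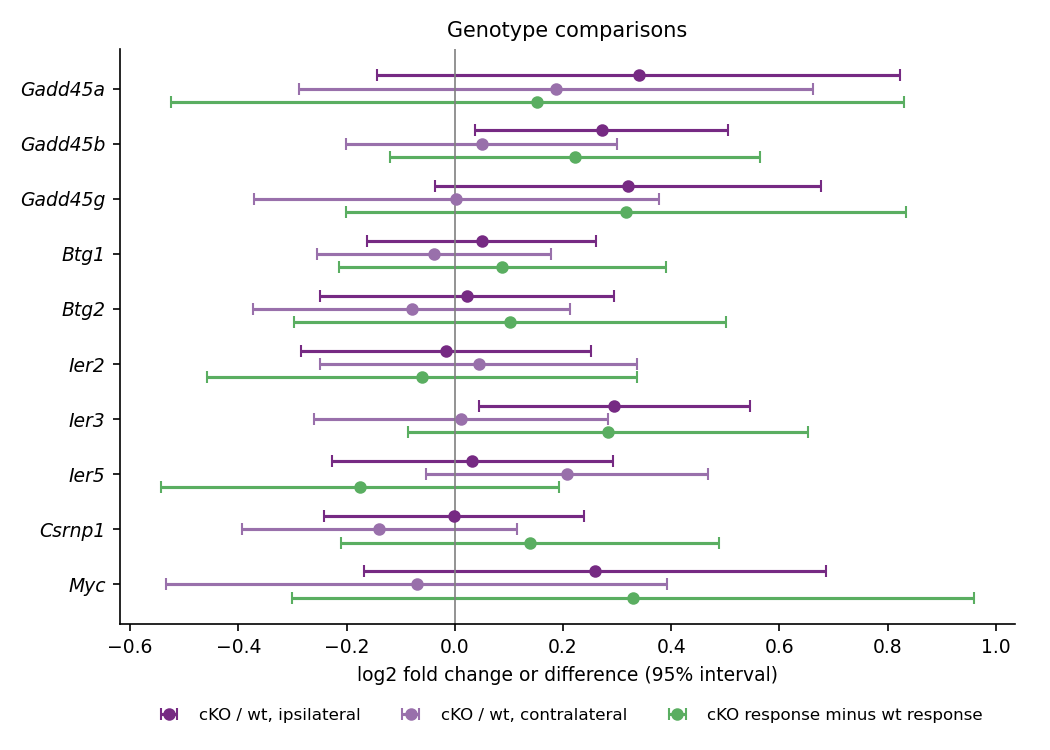
log2 fold change of cKO over wt in ipsilateral (dark purple) and contralateral cortex (light purple), and the cKO minus wt difference of the side effects (green), for the 10 genes; points are edgeR estimates and lines 95% intervals. The ipsilateral intervals of Gadd45b (0.04 to 0.51) and Ier3 (0.04 to 0.54) lie above 0, and all other intervals include 0.

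Of the 81 tested genes in the 7 lists, edgeR called 0 between genotypes in ipsilateral cortex, in contralateral cortex and for the difference of side effects. At an unadjusted p below 0.05 there were 11, 6 and 1 of the 81, against 987, 455 and 381 of all 16836 genes. In contralateral cortex 5 of the 19 tested genes of p53 and its targets had such a p, all higher in cKO mice. The 14 highest-expressed list genes named by rule, 2 per list, had log2 fold changes of −0.12 to 0.34 in ipsilateral and −0.14 to 0.14 in contralateral cortex, and differences of −0.10 to 0.30. limma-voom and limma on TPM called 0 in all 3 comparisons, and DESeq2 called 1 in ipsilateral cortex and 0 in the other two. That gene, named after its values were seen, was Cdkn1a, with a log2 fold change of 0.41 in cKO over wt ipsilateral cortex (DESeq2 adjusted p = 0.0286).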

How the data were processed

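Per the labels, polyadenylated RNA of mouse cortex was sequenced from TruSeq stranded libraries. Per the submitters' processing notes, Trim Galore 0.6.4, STAR 2.7.1a, RSEM 1.2.28 and DESeq2 1.36.0 were used with mm10; annotation and strand setting are not given in the sources used here. The authors deposited estimated counts per gene, which were already whole numbers, and TPM values per gene, scaled by length and depth. Of the 55487 identifiers, 55141 (99.4%) matched GENCODE M21, which gave names and positions.

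Counts of all 12 libraries were fitted with edgeR 4.0.16 (R 4.3.3; TMM; filterByExpr with a minimum count of 10 and a minimum total of 15, which removed 38651 genes; quasi-likelihood test; Benjamini-Hochberg over all tested genes; threshold 0.05). The SE is the absolute log2 fold change divided by the square root of the F statistic, and 95% intervals use the t quantile of its degrees of freedom. The edgeR and limma-voom fits were also run on counts simulated from the spread that edgeR itself had fitted. Such counts meet the assumptions of the fit, so they cannot show whether the real libraries do. Alternatives were DESeq2 1.42.0, limma 3.58.1 (voom, or trend on log2 TPM with pseudocount 1 or 0.1 and a mean of at least 1 TPM), other scalings and filters, a replicate block and leaving out each library.

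The 10 members and the 7 lists were chosen with earlier results of these data known, so no list was tested as a set and counts are descriptions. Text names all members; from each list, per comparison, up to 4 called genes of smallest adjusted p, or, with none called, the 2 of highest mean CPM; and per member the 2 genes of most similar pattern. Promoters were matched by symbol; Ier2 and Myc had no entry. Library totals were 7.96 M to 33.6 M; among the members, counts were lowest for Myc, at 62 to 267, and SEs largest for Gadd45a.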

Additional observations from a re-analysis of the deposited data

How the results depend on the processing

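Across 22 settings (21 for the difference of side effects), member values kept direction and side of the threshold in 211 of 220 cases for cKO sides and 212 of 220 for wt sides, the others only missing the threshold; 198 and 199 of 220 did so for cKO against wt in ipsilateral and contralateral cortex, and 202 of 210 for the difference, the others changing sign around 0. Of the 10 members, 8 to 9 were called between sides in either genotype on leaving out a library, 6 or 7 in cKO and 6 in wt mice with limma on TPM.

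Over all genes, the 461 calls between cKO sides became 968 without a filter (112 of them lower), 174 and 170 with limma on TPM at pseudocounts 1 and 0.1, and 277 to 579 on leaving out a library (277 without cKO ipsilateral 2, 280 without cKO contralateral 1). The 491 calls between wt sides became 991 without a filter (139 lower), 766 with DESeq2 (613 higher, 153 lower), 139 and 138 on TPM, and 250 to 861 on leaving out a library (281 without wt ipsilateral 2, 310 without wt ipsilateral 3, 250 without wt contralateral 2, 861 without wt contralateral 3); scaling by library totals gave 379 higher and 73 lower. The 0 calls between genotypes became 223, 96 and 72 without a filter (ipsilateral, contralateral, difference), 12 and 3 with DESeq2 in ipsilateral and contralateral cortex, 1 and 1 on TPM in ipsilateral cortex and for the difference, and 0 to 2 in contralateral cortex on leaving out a library. The cause was not tested. On TPM the median of all genes moved to −0.18 and −0.21 for wt sides, 0.16 and 0.18 for ipsilateral genotypes and 0.14 and 0.16 for the difference.

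Signs changed as follows, in log2. For cKO over wt in ipsilateral cortex, Ier2 was 0.0261 with library totals, 0.16 and 0.16 on TPM and −0.11 to 0.0749 on leaving out a library; Csrnp1 was 0.0388, 0.16 and 0.16, 0.0014 with limma-voom and −0.0579 to 0.0315; Ier5 was −0.0015 with limma-voom and −0.11 to 0.13; Btg1 was −0.0416 and −0.0443 on TPM and −0.0113 to 0.0977; Btg2 was −0.0885 to 0.0922. In contralateral cortex, Gadd45g was −0.0020 with DESeq2 size factors, −0.0045 without a filter, −0.0045 with the DESeq2 test and −0.0018 with 2 groups alone. Leaving out a library there gave −0.19 to 0.19 for Gadd45g, −0.0537 to 0.10 for Ier3, −0.15 to 0.0490 for Btg1, −0.25 to 0.0040 for Btg2, −0.0249 to 0.35 for Gadd45a, −0.11 to 0.16 for Ier2 and −0.22 to 0.13 for Myc. For the difference, Gadd45a was −0.0037 with limma-voom and −0.0875 to 0.36 on leaving out a library, Ier2 was 0.0757 and 0.0721 on TPM and −0.18 to 0.0909, and Btg2 was −0.0042 to 0.27. Between cKO sides Mxd4 was −0.19 to 0.00098, and between wt sides Pabpc1 was −0.0248 and −0.0250 on TPM.

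Libraries of equal number were not taken as pairs, because the labels do not state that they are from the same animal. The correlation of their residuals was 0.0705, 0.0920 and 0.0568 in cKO and −0.0020, 0.0941 and 0.0457 in wt mice, below the 0.1 set for pairing. Of these 6 numbers, however, 5 matched their own best, and number 1 of wt mice matched number 3. Centring within groups of 3 libraries ties the correlations of the candidate matches to each other, so the check cannot decide on pairing. With the replicate block 533 and 567 genes were called between cKO and wt sides, 9 and 9 of them members, and 0 in the other 3 comparisons; it ended the calls of Tnfrsf10b and Odc1 in cKO mice (edgeR adjusted p = 0.0666 and 0.0724) and Plk2 in wt mice (0.0587). The alternatives for list genes were chosen after seeing the data.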
